A study of Mus musculus with 15 samples.

Results

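The Egr factors and their Nab corepressors were followed in mouse dental mesenchymal cells (mDMCs) before and during culture. The members were chosen by name: Egr1, Egr2, Egr3, Nab1 and Nab2, taken as the rows of the expression table whose Ensembl transcript mapped to these genes. A row was found for 4 of the 5 genes, 2 Egr factors and 2 Nab corepressors among 12089 transcripts, and Egr3 was not analysed here. The mDMCs came from the mesenchyme of mandibular first molar germs of E14.5 ICR mouse embryos, freed from the epithelium with dispase and brought to single cells with trypsin. Freshly isolated cells (0 h) gave 3 libraries, and cells kept in serum-supplemented medium gave 2 libraries at 12 h and 3 at each later time (24 h, 36 h, 48 h). A single library came from dental mesenchymal tissue, so that its values have no replicate and no test. The labels give no embryo, litter or culture for a library, and the p-values below then measure the spread between these libraries, which may be technical.

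Egr1 and Egr2 are zinc finger transcription factors of the immediate early class, genes that are transcribed within minutes of a stimulus such as serum, growth factors or stress without new protein synthesis. Serum response factor (SRF) switches them on with cofactors of the Elk family, which the ERK kinase cascade activates, and with actin-regulated cofactors, and the factors bind GC-rich sites in their target genes. Nab1 and Nab2 have no DNA-binding domain of their own. They bind the Egr factors and recruit the NuRD deacetylase and remodelling complex, which restrains transcription, and Nab2 is itself an Egr target, which can close a negative feedback loop. Egr2, also called Krox20, is best known for its roles in hindbrain patterning and in the myelination of nerves by Schwann cells.

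Each value below is an expression score, a whole number on the normalized scale of the deposited table. The scale gave all 15 libraries the same median score (721) and the same largest score (127101), which hides any change in RNA content per cell, and sequencing depth is unknown. Scores followed transcript length hardly at all (Pearson's r 0.08 across 11973 transcripts, which are not independent replicates), and levels were therefore compared between libraries and not between genes. Replicates 1 and 2 at 36 h were closer to each other than any other pair of one time point, with the same score for 4.87% of transcripts against 1.45 to 2.64% in the other pairs, and were kept as 2 libraries. Changes were tested with limma on log2(score + 1) over 12079 transcripts and called at a Benjamini-Hochberg adjusted p below 0.05.

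Egr1 was highest in freshly isolated mDMCs and fell in culture. Its transcript ENSMUST00000064795 lies on the plus strand of chromosome 18 at 34859823 to 34864984 (GRCm38, the build also named mm10), a protein-coding transcript of 2 exons. The scores at 0 h were 2540, 3904 and 8276. At 12 h they were 2343 and 1021, and at 24 h they were 837, 1049 and 1100. All cultured libraries lay below all fresh ones, although the higher library at 12 h came close to the lowest at 0 h. At 36 h the scores were 821, 836 and 965, and at 48 h they were 423, 628 and 915. The mean thus went from 4907 ± 2997 (SD, n = 3) at 0 h to 1682 ± 935 (n = 2), 995 ± 139 (n = 3), 874 ± 79.2 (n = 3) and 655 ± 247 (n = 3) over the 4 culture times.

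The fall of Egr1 from 0 h was 2.81-fold at 12 h (log2 change -1.49, SE 0.45, 95% interval -2.45 to -0.52, limma adjusted p = 0.0118) and 6.95-fold at 48 h (-2.80, SE 0.40, interval -3.66 to -1.93, adjusted p = 3.5e-05). In between it was 4.39-fold at 24 h (adjusted p = 3.9e-04) and 4.98-fold at 36 h (adjusted p = 1.8e-04). The call at 12 h rested on 1 library: without replicate 2 at 12 h the change was -0.89 and was no longer called, and the limma adjusted p ran from 0.00277 to 0.168 when each of the 5 libraries was left out in turn. A fit of the 0 h and 12 h libraries alone also missed the threshold (adjusted p = 0.0728). From 24 h on, Egr1 was called in every fit that left out a library.

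**Figure D1:**
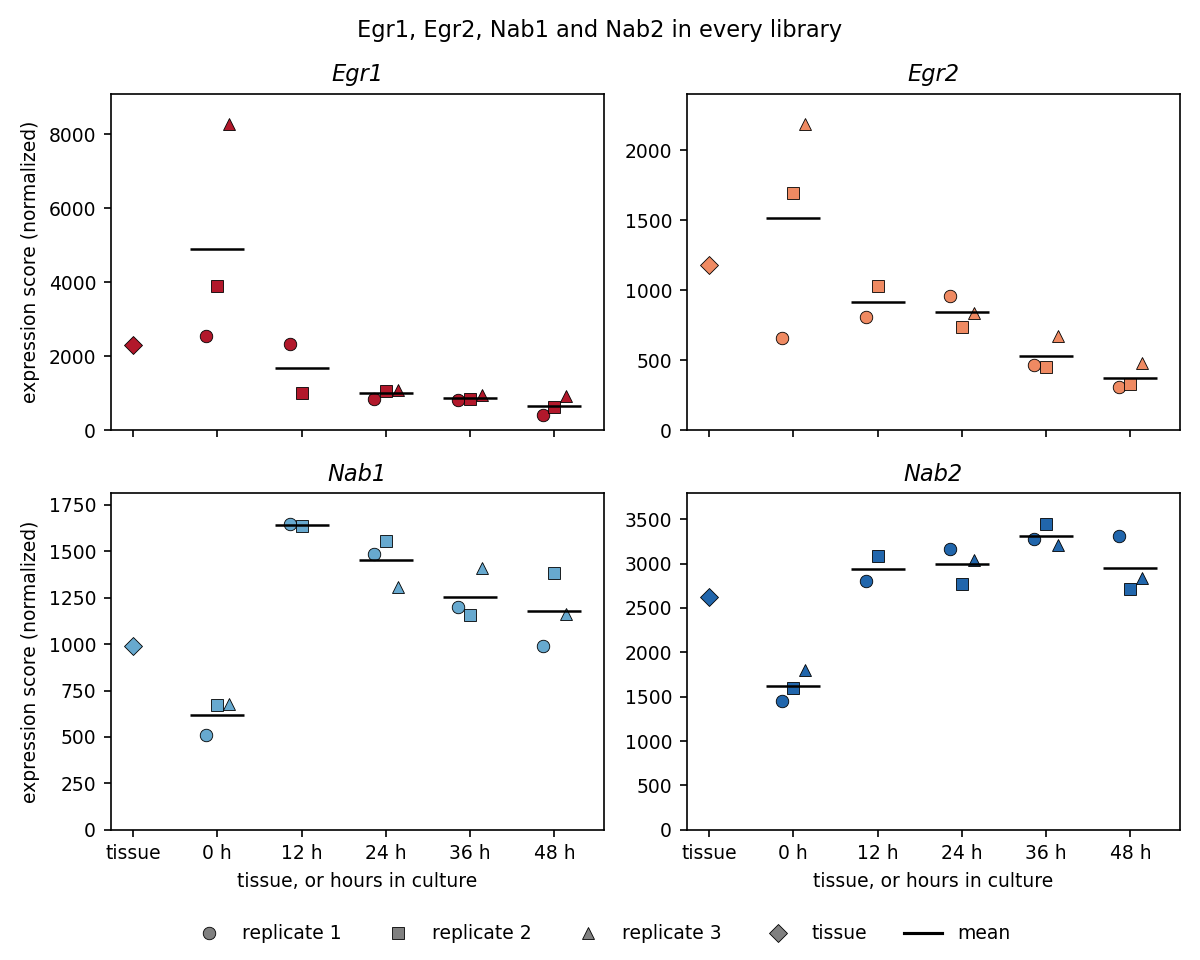
Expression scores of Egr1, Egr2, Nab1 and Nab2 (vertical axes, each from 0) in the tissue library and at 0, 12, 24, 36 and 48 h (horizontal axis), with 1 point per library, a shape for each replicate number and a bar at the mean of each time point. Egr1 in all cultured libraries (423 to 2343) lies below the fresh libraries (2540 to 8276), Nab1 (989 to 1649 against 510 to 679) and Nab2 (2711 to 3449 against 1447 to 1806) lie above, and for Egr2 replicate 1 at 0 h (661) falls among the cultured libraries.

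Egr2 was lower than in fresh cells by the later culture times, 36 h and 48 h. Its transcript ENSMUST00000048289 lies on the plus strand of chromosome 10 at 67537869 to 67542188 and has 2 exons. The scores at 0 h were 661, 1699 and 2188, so that replicate 1 held a far lower level than the other 2 fresh libraries. They were 808 and 1029 at 12 h and 961, 741 and 837 at 24 h, all between replicate 1 and the rest of the fresh libraries. At 36 h the scores were 467, 455 and 675, and at 48 h they were 308, 331 and 483, below all 3 fresh libraries. Of the 11 cultured libraries, 5 lay below every fresh library and none lay above.

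The sequence before the start of Egr2 is shown because it carries the element through which serum acts on immediate early genes, the CArG box bound by SRF. The 300 bases around the start, most of them upstream, were taken from RefSeq (GRCm38.p6, chr10:67537619-67537918, plus strand). For Egr2 5 promoters are listed, and the window shown is the one at the start of the transcript followed here. The others are not shown. Capitals mark the CArG box at positions -72 to -63 from the start and the cAMP response element core GACGTCA at -57 to -51, which do not overlap:
Egr2: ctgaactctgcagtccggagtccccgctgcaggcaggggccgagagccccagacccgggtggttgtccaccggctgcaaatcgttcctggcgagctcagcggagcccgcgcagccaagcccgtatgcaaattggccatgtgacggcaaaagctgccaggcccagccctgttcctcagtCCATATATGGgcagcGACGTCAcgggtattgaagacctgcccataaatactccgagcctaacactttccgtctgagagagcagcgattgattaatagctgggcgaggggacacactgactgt
Both strands were searched. A CArG box was found in 1.64% and GACGTCA in 3.22% of 32544 mouse promoter windows of this length. A match is a description of the letters and not of binding.

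For Egr2 the change from 0 h was -0.57 at 12 h (SE 0.39, 95% interval -1.41 to 0.28, limma adjusted p = 0.234) and -0.68 at 24 h (interval -1.44 to 0.08, adjusted p = 0.101), neither past the threshold. It fell by 2.58-fold at 36 h (log2 change -1.36, adjusted p = 0.00355) and by 3.67-fold at 48 h (-1.88, interval -2.63 to -1.12, adjusted p = 3.4e-04). The timing depended on replicate 1 at 0 h. Without that library Egr2 was called at 12 h (-1.08, adjusted p = 0.00296) and at 24 h (-1.20, adjusted p = 6.1e-04), and leaving out each library in turn gave a limma adjusted p of 0.00296 to 0.638 for 12 h and of 6.1e-04 to 0.406 for 24 h. The means were 1516 ± 780 at 0 h (SD, n = 3) and 374 ± 95.1 at 48 h (n = 3).

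Nab1 rose at the first culture time. Its transcript ENSMUST00000186764 has 9 exons on the minus strand of chromosome 1, at 52457294 to 52500300. The scores at 0 h were 510, 673 and 679, and at 12 h they were 1649 and 1638, the highest of the series. At 24 h the scores 1487, 1556 and 1310 followed, then 1199, 1155 and 1411 at 36 h. The last time point held 989, 1383 and 1162. No cultured library overlapped the fresh ones. The rise from 0 h was 2.67-fold at 12 h (log2 change 1.42, SE 0.16, 95% interval 1.08 to 1.75, limma adjusted p = 7.3e-06), 2.35-fold at 24 h (adjusted p = 5.5e-06), 2.03-fold at 36 h (adjusted p = 2.6e-05) and 1.89-fold at 48 h (log2 change 0.92, interval 0.62 to 1.22, adjusted p = 6.0e-05).

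The promoter window of Nab1 is shown because it holds the letters of an Egr binding site, GCGNGGGCG, at 3 places. It covers 300 bases around the RefSeq start (GRCm38.p6, chr1:52500399-52500698, minus strand), which lies 148 bases from the start of the transcript in the table. Capitals mark the sites, at positions -141 to -133, -109 to -101 and -38 to -30 from that start. The first reads on the opposite strand, and none overlaps another:
Nab1: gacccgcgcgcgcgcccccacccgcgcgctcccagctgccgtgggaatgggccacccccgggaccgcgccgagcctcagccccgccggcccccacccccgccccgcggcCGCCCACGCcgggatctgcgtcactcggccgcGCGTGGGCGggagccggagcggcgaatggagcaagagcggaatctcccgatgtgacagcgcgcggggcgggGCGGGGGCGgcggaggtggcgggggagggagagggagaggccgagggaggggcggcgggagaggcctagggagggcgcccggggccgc
The Egr letters were present in 5.60% of all 32544 windows and at 3 or more places in 0.197%. The Nab1 window is also unusually rich in G and C (81.7%), and of the 344 windows with at least 80% G or C, 52.9% held the site and 6.10% held it 3 or more times. In the Nab2 window (74.0% G or C) none of the 3 motifs was found, which says only that these letters are not in this window.

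Nab2 rose to a plateau. Its transcript ENSMUST00000026469 has 7 exons on the minus strand of chromosome 10, at 127660918 to 127666710. The scores at 0 h were 1447, 1597 and 1806. By 12 h they had reached 2799 and 3086, and the 24 h libraries held 3165, 2768 and 3036. The libraries of 36 h held 3281, 3449 and 3214 and those of 48 h 3312, 2711 and 2837, and all cultured libraries lay above the fresh ones. The rise was 1.82-fold at 12 h (log2 change 0.87, SE 0.11, 95% interval 0.63 to 1.11, limma adjusted p = 2.5e-05), 1.85-fold at 24 h (adjusted p = 4.7e-06), 2.06-fold at 36 h (adjusted p = 9.8e-07) and 1.83-fold at 48 h (interval 0.66 to 1.08 in log2, adjusted p = 4.7e-06). The end of Nab2 shares 40 bases with Stat6 on the other strand, and strand use in the counting is not stated. Stat6, a transcription factor of interleukin signalling, was at 790 to 970 at 0 h, 881 in tissue and 1600 to 4314 in culture, and the part of these shared bases in the Nab2 scores was not tested. A longer overlap joins Nab2 to the antisense transcript Gm16229, which was not analysed here.

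Called changes were common in the series. Of the 4 members, 3 were called at 12 h and at 24 h and all 4 at 36 h and 48 h. Of all 12079 transcripts, 58.2% were called at the first of these times, 66.9% and 70.0% at the next ones, and 71.2% at the last, so that the members' counts are near the background. The median change over all transcripts was 0.02 to 0.03. In size, 7.01% of all transcripts had a change as low as that of Egr1 or lower at 12 h and 3.70% at 48 h. For Egr2 these shares were 21.8% and 7.0%. The share with a change at or below that of Nab1 was 92.2% at 12 h and 82.3% at 48 h, and for Nab2 it was 85.4% and 81.3%. All 11 cultured libraries lay below the fresh ones in 22.6% of transcripts, as for Egr1, and above them in 24.6%, as for both Nab genes.

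**Figure D2:**
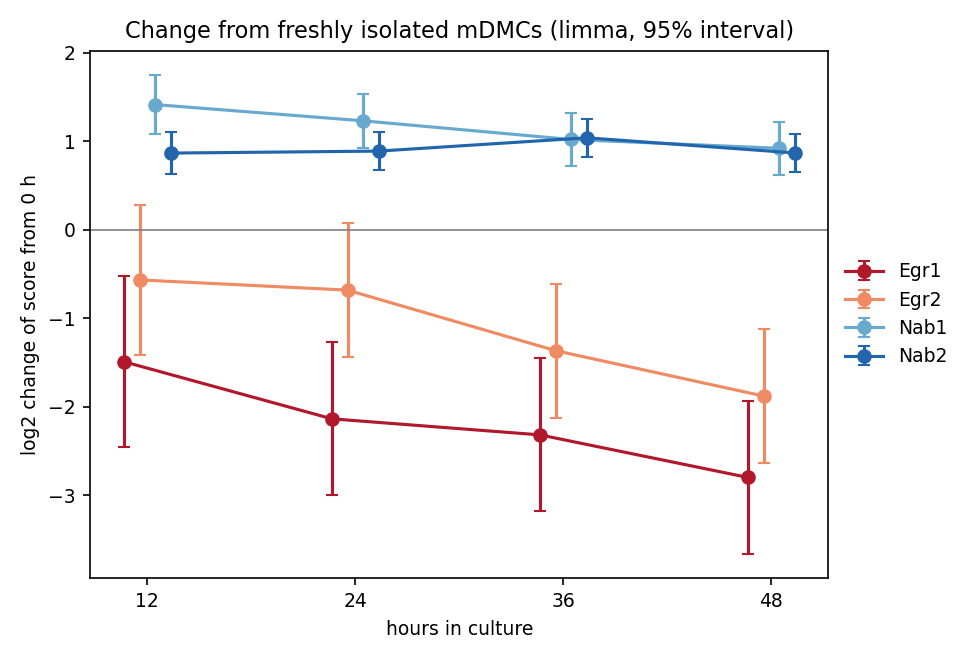
Log2 change of the score from 0 h (vertical axis) against hours in culture (horizontal axis), with the limma estimate as a point and its 95% interval as a bar; points are shifted sideways to keep them apart. Nab1 and Nab2 stay above 0 at all 4 times (0.87 to 1.42), Egr1 stays below (-1.49 to -2.80), and the Egr2 intervals include 0 at 12 h and 24 h.

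Between neighbouring culture times no change of a member passed the test in the fit of all time points. From 12 h to 24 h, 24 h to 36 h and 36 h to 48 h none of the 4 members was called with limma, where 8.25%, 19.7% and 0.0248% of all transcripts were, and the lowest adjusted p was 0.185 (unadjusted p = 0.0724), for Egr2 from 24 h to 36 h (log2 change -0.68, 95% interval -1.44 to 0.07). A fit of the 24 h and 36 h libraries alone called Egr2 in that step (limma adjusted p = 0.0291). The steps added up over the later culture. At 48 h against 12 h, a comparison added after the values had been seen, Egr1 was lower by 2.48-fold (log2 change -1.31, limma adjusted p = 0.0318), Egr2 by 2.48-fold (adjusted p = 0.0169) and Nab1 by 1.41-fold (adjusted p = 0.0226), in a comparison where 42.2% of transcripts were called. Nab2 differed by 0.00 (interval -0.24 to 0.24, adjusted p = 0.992). These calls were fragile: without replicate 1 at 48 h none of the 4 was called, and without either 12 h library 1 was.

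For each pair of factor and corepressor, the difference of log2 scores (Egr minus Nab) was lower in the cultured than in the fresh libraries. The difference of log2 scores is given here only to compare libraries, since its sign at any one time depends on the 2 transcripts. Egr1 minus Nab2 was 0.81 to 2.20 in the fresh libraries, -0.18 in tissue and -2.97 to -0.26 in culture. Egr1 minus Nab1 was 2.31 to 3.61 in fresh cells, 1.23 in tissue and -1.22 to 0.51 in culture. For both pairs the tissue library lay between the fresh and the cultured ones. Egr2 minus Nab1 went from 0.37 to 1.69 in fresh cells to -2.06 to -0.63 in culture, with tissue at 0.25, between the groups. Egr2 minus Nab2 went from -1.13 to 0.28 in fresh cells to -3.42 to -1.58 in culture, and tissue was at -1.15, just under the lowest fresh library. The differences carry the directions already given for the members and were not tested. Egr2 alone overlapped the fresh libraries at 12 h, 24 h and 36 h, while both Nab genes lay above them at every culture time. Every cultured library lay below the fresh ones in 22.6% of single transcripts and above them in 24.6%. The share for other pairs of transcripts was not computed.

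**Figure D3:**
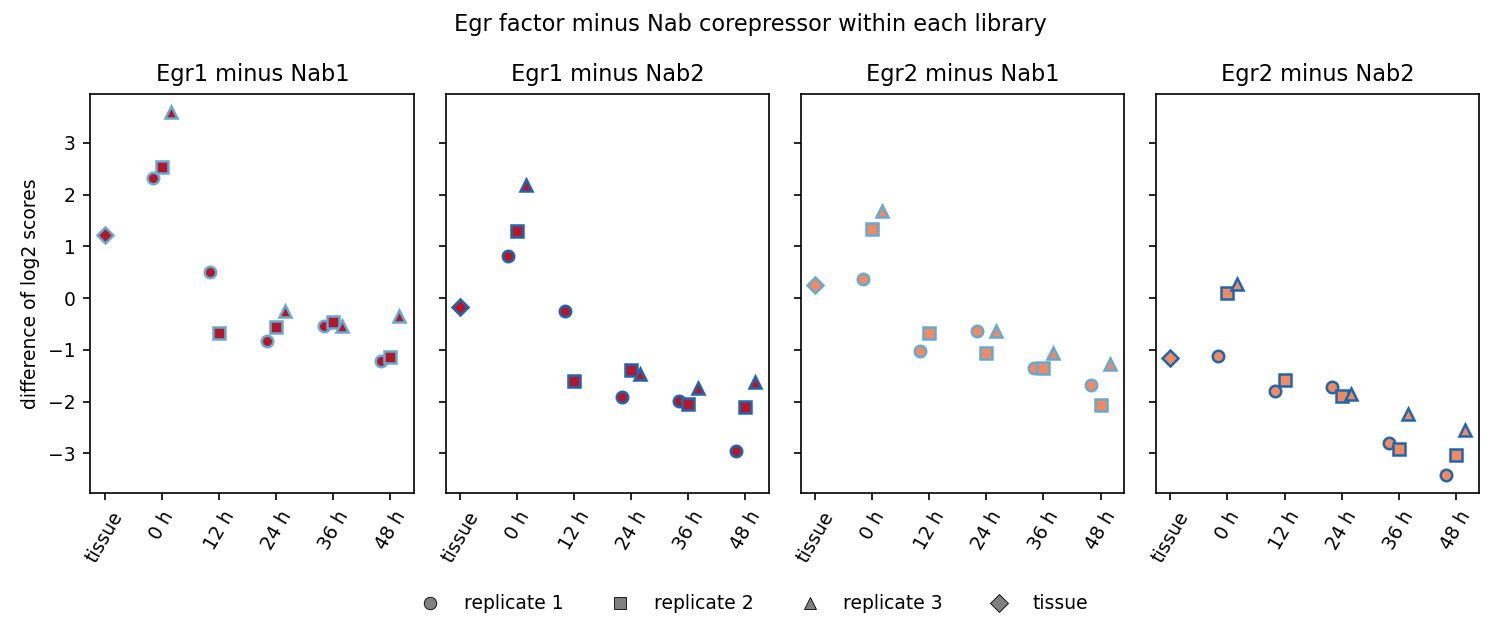
Difference of log2 scores, Egr factor minus Nab corepressor, for the 4 pairs (panels) in every library (points, with a shape for each replicate number and a diamond for tissue), by tissue and hours in culture. In every panel the fresh libraries lie above all cultured ones, and for Egr1 minus Nab2 the tissue library (-0.18) lies between the fresh (0.81 to 2.20) and the cultured libraries (-2.97 to -0.26). The share of other pairs of transcripts with such a separation was not computed.

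Among the 4 members, the fresh libraries differed most in the Egr factors. At 0 h the scores of Egr1 spanned 1.70 on the log2 scale, a wider range than that of 98.3% of all transcripts, and those of Egr2 spanned 1.73 (98.3%). For Nab1 the range was 0.41 (62.1%) and for Nab2 0.32 (48.5%). Both Egr factors were lowest in replicate 1 and highest in replicate 3. The same order was seen in a list of 31 other immediate early genes (the Fos, Jun, Klf and Nr4a genes, Atf3, Ier2, Zfp36, Myc and others), of which replicate 1 was lowest in 31 and replicate 3 highest in 30, against 30.1% and 34.1% of all transcripts. Their median range at 0 h was 1.85, against 0.33 over all transcripts. Fos, a partner of Jun in the AP-1 factor, was at 16498, 40642 and 127101, the last being the highest score of its library. Arc, which in neurons follows synaptic activity, was at 30, 236 and 774.

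Marker sums also differed between the fresh libraries. The summed scores of 7 epithelial markers with a row, of 8 listed, were 13358 in replicate 1 and 1450 and 1771 in replicates 2 and 3, against 4902 in tissue and 87 to 2683 in culture. The summed dental mesenchyme markers (11 of 11, among them Msx1, Pax9 and Lhx6) were 84153, 86369 and 101558 in replicates 1 to 3, of which Prrx1 gave 40667, 40667 and 50479. The 4 glial markers with a row summed to 917, 658 and 482. The order of that sum came from Erbb3 (545, 227 and 155), while Cdh19 (129, 146 and 118) and S100b (59, 114 and 64) were highest in replicate 2 and Fabp7 was at 184, 171 and 145. The red cell markers summed to 97833, 150838 and 142776. The part of these markers in the Egr levels was not tested.

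**Figure D4:**
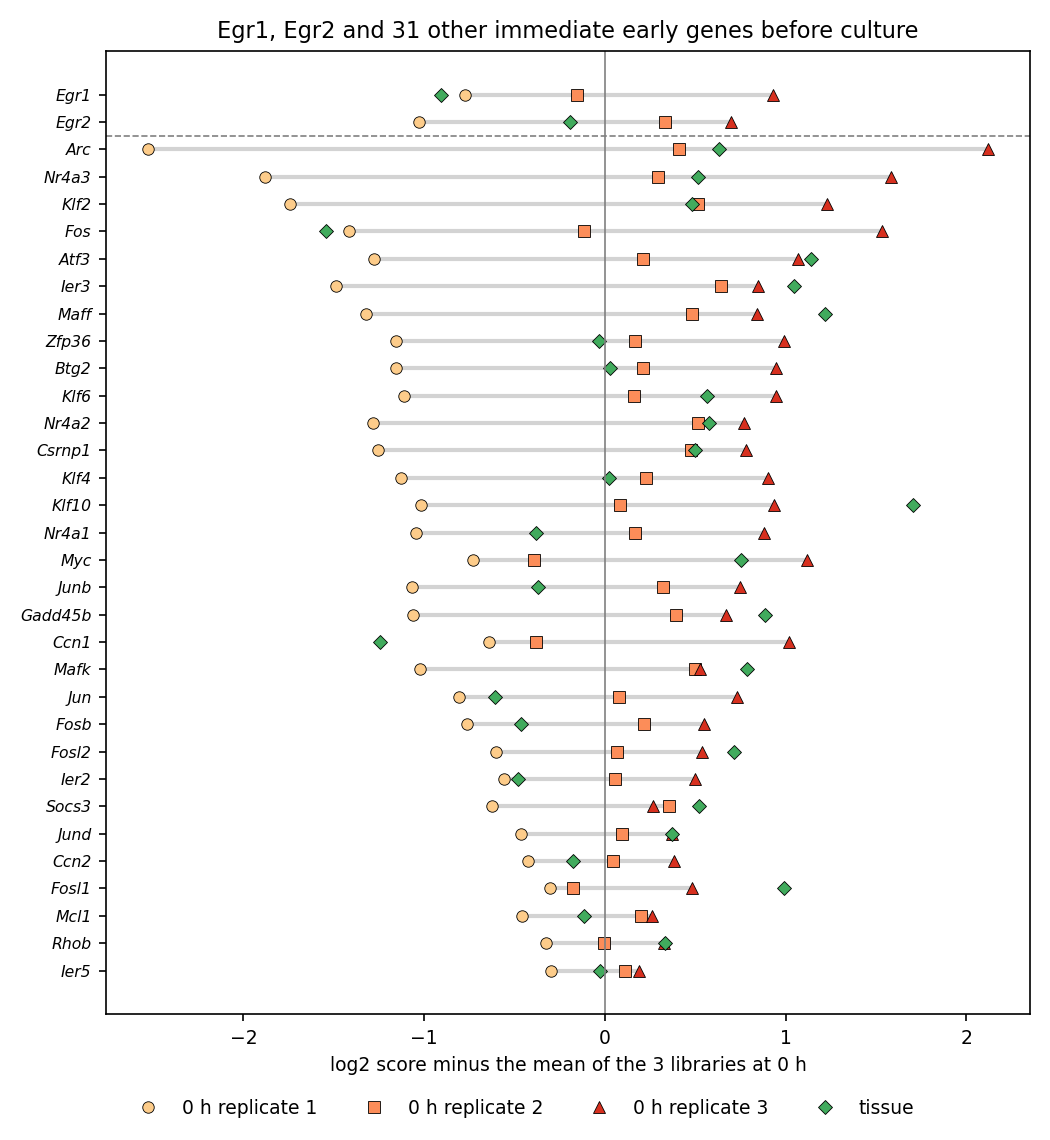
Log2 score minus the mean of the 3 fresh libraries (horizontal axis) for Egr1, Egr2 and 31 other immediate early genes (rows). Egr1 and Egr2 are set on top, and the others follow in order of their range. Each row has 1 point for each fresh library, a diamond for tissue and a grey bar that spans the fresh libraries. Replicate 1 is the lowest fresh library in every row, and the tissue library lies within the fresh range for 19 of the 31 listed genes.

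The tissue library lay outside the range of the fresh mDMCs for Egr1, Nab1 and Nab2. Egr1 was at 2317 in tissue, below all 3 fresh libraries (0.47 times their mean, a log2 difference of -0.91), and 95.01% of transcripts differed less. Egr2 was at 1179, within the fresh range (log2 difference -0.19, larger than that of 43.8% of transcripts). Nab1 at 989 and Nab2 at 2622 lay above all fresh libraries, by 0.68 and 0.70 on the log2 scale, larger than the difference of 90.4% and 91.1% of transcripts. With a single tissue library these differences have no replicate check. Of the 31 other immediate early genes, tissue lay within the fresh range for 19, above it for 10 and below it for 2, while over all transcripts 38.3% lay within, 29.7% above and 32.0% below.

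SRF and its cofactors act on the promoters of immediate early genes. Of SRF and its 5 listed cofactors, 3 rose and none fell at 12 h, where 29.9% of all transcripts rose and 28.3% fell, and at 48 h 2 rose and 2 fell, where 37.1% rose and 34.0% fell. Mrtfa, the actin-regulated cofactor of SRF, rose from 273 ± 66.4 at 0 h (SD, n = 3) to 1430 ± 163 at 48 h (n = 3; log2 change 2.40, limma adjusted p = 6.4e-07). Srf itself rose by 0.80 at 12 h (log2, adjusted p = 9.1e-04) and was at 0.07 at 48 h (adjusted p = 0.653). Elk3 rose at both times (0.61 and 0.64), and Mrtfb was lower at 48 h (-0.75, adjusted p = 0.0266). Without replicate 1 at 48 h, 2 of these genes rose and none fell at that time.

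Receptors and kinases of the ERK route were mixed. Of 17 with a row (19 listed), 3 rose and 6 fell at 12 h, and 7 rose and 5 fell at 48 h (median log2 change 0.08 and 0.05). The median at 12 h was -0.25 without replicate 1 at 12 h. At 48 h it was 0.002 without replicate 1 at 0 h and 0.20 without replicate 1 at 48 h. Without replicate 3 at 0 h, 3 rose and 4 fell at 12 h. Over all transcripts 29.9% rose and 28.3% fell at 12 h and 37.1% and 34.0% at 48 h, the shares against which the counts of this and the following lists are to be read, and the counts at 48 h are near them. Pdgfra, a receptor for platelet-derived growth factor and a dental mesenchyme marker, fell by 2.69 on the log2 scale at 48 h (limma adjusted p = 3.3e-11), and the fibroblast growth factor receptor Fgfr1 fell by 1.49 (adjusted p = 1.3e-05). Pdgfra held the same score, 16448, in all 3 fresh libraries, so that these show no spread and its error may be too small. The small GTPase gene Hras rose by 0.81 at 12 h (log2, adjusted p = 2.0e-05).

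Feedback inhibitors of ERK signalling, of the Dusp, Spry and Spred families, were likewise mixed, with 3 of 11 risen (27.3%, against 29.9% of all transcripts) and 2 fallen (18.2%, against 28.3%) at 12 h, and 4 risen (36.4%, against 37.1%) and 5 fallen (45.5%, against 34.0%) at 48 h. Dusp4, a nuclear ERK phosphatase, rose from 342 ± 137 at 0 h to 1276 ± 28.3 at 12 h (n = 2; log2 change 1.99, limma adjusted p = 4.4e-04) and Spry2 rose by 1.49 (adjusted p = 3.0e-05). Dusp5 rose by 1.11 at 12 h (adjusted p = 0.0349). Dusp1, itself an immediate early gene, fell by 1.15 at 12 h (adjusted p = 0.0160), and Dusp2 fell by 1.91 at 48 h (adjusted p = 0.0169). At 12 h, 5 of the 11 rose and 1 fell without replicate 3 at 0 h, and 2 rose and 3 fell without replicate 1 at 0 h.

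The other immediate early genes went both ways. Of 31, 8 rose (25.8%, against 29.9% of all transcripts) and 13 fell (41.9%, against 28.3%) at 12 h, with a median log2 change of 0.25. At 48 h 6 rose (19.4%, against 37.1%) and 14 fell (45.2%, against 34.0%), with a median of -0.51. Fos fell at 12 h (log2 change -4.50, limma adjusted p = 2.9e-05) and at 48 h (-5.61, adjusted p = 7.4e-07), and Fosb fell likewise (-3.999 and -4.62). Fosl1, the Fos family member Fra-1, rose from 13 ± 4.36 at 0 h to 558.5 ± 202 at 12 h (n = 2; log2 change 5.32, adjusted p = 8.7e-08). Ccn2, a matricellular growth factor gene, rose from 1662 ± 453 to 40642 in both libraries at 12 h (4.65, limma adjusted p = 1.2e-07). The equal values show no spread, and the error of Ccn2 may be too small. These counts depended on single libraries. Without replicate 1 at 12 h, 6 rose and 11 fell at 12 h (median -0.25). Without replicate 1 at 0 h, 8 rose and 15 fell at 12 h (median -0.63) and 5 rose and 19 fell at 48 h (median -1.29). Without replicate 3 at 0 h, 13 rose and 12 fell at 12 h (median 0.38) and 12 rose and 13 fell at 48 h (median -0.03).

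Among genes described as Egr targets, with 23 of 26 listed having a row, 13 rose (56.5%) and 5 fell (21.7%) at 12 h and again 13 rose and 5 fell at 48 h (median log2 change 0.76 and 0.86). Over all transcripts the shares were 29.9% and 28.3% at 12 h and 37.1% and 34.0% at 48 h. The median of the targets at 48 h was 0.56 without replicate 1 at 0 h and 1.13 without replicate 3 at 0 h. Timp1, a metalloproteinase inhibitor, rose from 180 ± 22.9 at 0 h to 9679 ± 2810 at 48 h (log2 change 5.71, limma adjusted p = 7.7e-11). Plaur, the urokinase receptor, rose by 5.51 at 12 h (adjusted p = 1.0e-08), and F3, tissue factor, by 4.25 (adjusted p = 3.4e-08). Gdf15 was near the bottom of the scale at 0 h (mean score 0.33) and reached 89.7 ± 33.9 at 48 h. Many other factors regulate these genes, and the part of Egr was not tested.

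The NuRD genes encode the complex through which Nab proteins act. Of 13, none rose and 3 fell (23.1%, against 28.3% of all transcripts) at 12 h with limma, and without replicate 3 at 0 h 3 rose and 3 fell. At 48 h 1 rose (7.69%, against 37.1%) and 7 fell (53.8%, against 34.0%). The median log2 change was -0.14 at 12 h and -0.39 at 48 h. At 12 h it was -0.05 without replicate 1 at 0 h, -0.18 without replicate 3 at 0 h and -0.04 without replicate 1 at 12 h. Chd3, a remodelling ATPase of the complex, fell from 22487 ± 2959 at 0 h to 8552 ± 1129 at 48 h (-1.39, adjusted p = 1.1e-06). The histone-binding subunit Rbbp4 fell by 0.81 at 12 h and 1.04 at 48 h (limma adjusted p = 7.2e-05 and 1.6e-06). Mta2 fell by 0.43 at 12 h (adjusted p = 0.00337) and was at -0.20 at 48 h (adjusted p = 0.0728).

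Markers of other cells were also followed. At 48 h against 0 h, limma called 9 of 9 endothelial, 5 of 5 macrophage, 7 of 7 red cell, 4 of 7 epithelial and 2 of 4 glial markers with a row as lower and none as higher. The epithelial count was 2 without replicate 1 at 0 h and 2 without replicate 1 at 48 h. In bulk libraries, fewer cells of a type and less RNA per cell cannot be told apart. The summed score of 9 of 9 endothelial markers was 10059 to 12177 at 0 h, 14622 in tissue and 603 to 996 in culture, with Cldn5 at 0 in most cultured libraries. Macrophage markers with a row (5 of 10) summed to 1404 to 2266 at 0 h, 3246 in tissue and 358 to 718 in culture, and red cell markers (7 of 8) to 97833 to 150838, 135856 and 51 to 757, with Slc4a1 at 0 in all cultured libraries. Schwann and glial markers, of interest for Egr2, had a row in 4 of 8 cases (Erbb3, Cdh19, S100b and Fabp7) and summed to 482 to 917 at 0 h, 1139 in tissue and 175 to 488 in culture. Sox10 and Foxd3, among others, were not analysed here. The summed dental mesenchyme markers, 84153 to 101558 at 0 h, were 46632 to 96169 in culture and 69850 in tissue. Prrx1 made up a large part of this sum (70675 in replicate 3 at 24 h), and of the 11 markers none was higher and 8 were lower at 48 h with limma. The part of these cells in the Egr and Nab levels was not tested.

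The profiles of the members over the 15 libraries are compared as a description, with all points sharing the 0 h and cultured groups. Pearson's r of the log2 scores was 0.84 between Egr1 and Egr2 (Spearman's rho 0.79), 0.83 between Nab1 and Nab2 (rho 0.37) and -0.79 between Egr1 and Nab2 (rho -0.76). It was -0.60 between Egr1 and Nab1 (rho -0.26), -0.53 between Egr2 and Nab2 (rho -0.51) and -0.30 between Egr2 and Nab1 (rho -0.03). The likeness of the Nab genes was weaker by rank. By Pearson's r, the profiles most like Egr1 were those of Sema4d (r = 0.97), Crtc1 (0.97) and Kdm6a (0.96), and those most like Egr2 were Lmbr1l (0.94), Pim1 (0.94) and Mapk8 (0.93). Nab1 was followed most closely by Edem1, Rcan2 and Nectin2 (each 0.96) and Nab2 by Inhbb (0.98), Tnfrsf12a (0.97) and Pvr (0.97). The order depended on the measure: by Spearman's rho Sema4d came 269th and Crtc1 98th for Egr1, and Pvr 467th for Nab2, and over the 14 mDMC libraries Edem1 came 12th for Nab1. Sema4d was at 162 to 381 in fresh cells, 139 in tissue and 39 to 49 at 48 h, and Tnfrsf12a, the receptor for the cytokine TWEAK, was at 112 to 314, 1206 and 5533 to 9588.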

How the data were processed

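RNA-seq of 14 mDMC libraries and 1 tissue library was used, and time points and replicate numbers came from the labels. The authors trimmed adaptors, aligned the reads to the mouse transcriptome (mm10, Ensembl) with bowtie and estimated expression with RSEM (version 1.1.21 in the submitters' processing notes). The authors deposited a single table of expression scores, whole-number values that had been normalized. Its name says cpm, a unit that library totals of 21357605 to 21365980 contradict. The normalization step is not given in the sources used here. Between 14 and 31 transcripts per library were at 0, and no transcript had a maximum below 13. The table used here gives neither read counts nor depth, so that count models such as the authors' DESeq2 were not applied.

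Transcripts were matched to GENCODE vM21 by identifier (11973 of 12089), and older symbols through RefSeq synonyms. A limma (version 3.58.1, R 4.3.3) model with 1 mean per time point was fitted to log2(score + 1) of the 14 mDMC libraries, with a trended prior, for the 12079 transcripts at or above 1 ppm of the library's total in at least 2 libraries. P-values were adjusted by Benjamini-Hochberg over all of them. The text names every member with a row, from each gene list the called genes with the largest change at 12 h (up to 4) and 48 h (up to 2), from each marker list the defining markers with a row, and for each member the 3 most correlated transcripts. Some genes named by this rule are not reported here. Genes given only to show the spread at 0 h (Arc) or an overlap (Stat6) were chosen after their values were seen. The members and lists were chosen with earlier results of these data known. Alternatives were the pseudocount (0.1, 10), the filter, a fit of just the 2 groups compared, a replicate block, an untrended prior, trimmed-mean scaling and leaving out each replicate. The comparison of 48 h with 12 h and counting replicates 1 and 2 at 36 h as 1 library were added after the data were seen. On simulated data for 12 h against 0 h (12079 genes) the test recovered 79 of 100 2-fold and 92 of 100 4-fold changes and called 6 unchanged genes. No other genes were changed there, while 58.2% of transcripts were called at 12 h in the data. The simulated noise was independent between libraries, so that these counts may not hold for the data. The deviations of same-numbered libraries correlated at -0.25 to 0.32, with 11 of 26 above 0.1 (6 of 52 with different numbers). All 3 same-numbered pairs were above 0.1 between 24 h and 36 h (0.127 to 0.165) and between 24 h and 48 h (0.201 to 0.318) but not over all time points, so that the numbers were not taken to pair the libraries of the series.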

Additional observations from a re-analysis of the deposited data

How the results depend on the processing

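Over the 8 comparisons, 445 of the members' log2 changes under an alternative kept their direction and side of the threshold, 12 lost the call, 3 gained it and 8 changed sign. Every change of Egr1, Nab1 and Nab2 from 0 h kept its call under all alternatives except Egr1 at 12 h, which lost it in the fit of the 2 compared times (-1.49, limma adjusted p = 0.0728) and without replicate 2 at 12 h (fits without 1 library each: -2.09 to -0.89). Egr2 kept its calls at 36 h and 48 h, and without replicate 1 at 0 h it gained calls at 12 h (range without 1 library -1.08 to -0.22) and 24 h (-1.20 to -0.33). The cause was not tested.

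The reversed changes were all uncalled: Nab2 at 48 h against 12 h with the replicate block (-0.0101), with trimmed-mean scaling (-0.0208) and without 1 library (-0.0837 to 0.0720), and, without 1 library, Nab2 (-0.0480 to 0.0928) and Egr2 (-0.29 to 0.0587) at 24 h against 12 h and Nab1 at 48 h against 36 h (-0.22 to 0.0200). The replicate block changed no call of a member, also from 24 h to 36 h (0 members, 2495 transcripts). It gave Egr1 -1.27 at 12 h (adjusted p = 0.0149), and it changed the count of calls over all transcripts past 1.5 times only at 48 h against 36 h.

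The fit of the 2 compared times called 1 member from 24 h to 36 h (Egr2, none in the full fit) and 1 at 48 h against 12 h (Egr2, 3 in the full fit, 0 to 3 without 1 library). Over all transcripts, the calls from 12 h to 24 h were 997, and 160 in the fit of the 2 times (184 to 1169 without 1 library). From 24 h to 36 h they were 2375, and 1100 with replicates 1 and 2 at 36 h as 1 library (1078 to 2522 without 1 library). From 36 h to 48 h they were 3, and 33 in the fit of the 2 times, 7 with the replicate block, 0 with the merged library (0 to 199 without 1 library). At 48 h against 12 h they were 5094, and 3210 to 4572 without 1 library. Fits that left 1 library at 12 h assumed that it varied like the others. Depth is unknown, so no limit from counting could be set.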
